A study of Mus musculus with 18 samples.

Results

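The comparison described here is that of laminin alpha 2-deficient (dyW) mice with wild-type (WT) mice when both had been given TD139. Its members are all the libraries whose group name joins a genotype with TD139, which were 5 of the 18 quadriceps RNA-seq libraries of the series, 3 from dyW mice and 2 from WT mice. The dyW mice are the strain B6.129S1(Cg)-Lama2tm1Eeng/J, a Lama2 knock-out kept on a C57BL/6J background, and the WT mice are C57BL/6J. The labels call the mutants of the colony hemizygotes and describe their condition as LAMA2 congenital muscular dystrophy. Genotype comparisons after PBS (3 dyW and 3 WT mice) and without treatment (4 dyW and 3 WT mice) exist in the same series and share no library with this one. By the labels, the PBS and TD139 mice carry an age of 3 weeks and the untreated mice one of 5 weeks, while the protocol text puts collection of the quadriceps at 5 weeks for all, and no dose, route or duration is given for TD139. Both sexes are present on each side, 2 males and 1 female among the dyW mice and 1 of each among the WT mice. The mutation is in every cell of the animal, the 2 WT libraries alone stand for WT under TD139, and each library carries an animal number of its own.

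Laminin alpha 2 is the alpha chain of laminin-211, the trimer that ties the basement membrane around each muscle fibre to dystroglycan and integrin alpha 7 beta 1 in the fibre's surface. Without it fibres detach and die, and muscle goes through cycles of degeneration, inflammation, regeneration and scarring, which is the setting of LAMA2-related congenital muscular dystrophy. Galectin-3 is a beta-galactoside-binding lectin made in quantity by activated macrophages, and TD139 is a small molecule made to occupy its carbohydrate-binding site. The question the design puts here is how dyW muscle differs from WT muscle when mice of both genotypes have received the inhibitor.

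The dyW libraries held 38.7 to 39.6 M exon reads and the WT libraries 33.1 to 34.2 M, within a range of 15.8 to 45.2 M over the series. Skeletal muscle genes were abundant in all 5. Skeletal actin (Acta1) lay between 15000 and 32000 RPKM (exon reads scaled to exon length and library size) and muscle creatine kinase (Ckm) between 4880 and 9370. The basal keratinocyte keratins Krt5 and Krt14 were at 0 reads in all 5. Across 15331 genes, log2 RPKM correlated at 0.985 to 0.988 between dyW libraries and at 0.971 between the 2 WT libraries. The 10 genes with most reads took 21.7% to 22.7% of the reads in dyW libraries and 28.9% to 30.0% in WT libraries. RPKM is not corrected for that difference while the fitted fold changes are, so that a ratio of RPKM values given below exceeds the fitted one. A WT library of the PBS group stood apart in slow fibre and nerve genes (slow myosin Myh7 at 442 RPKM against 0.0638 and 0.0207 in the other WT PBS libraries). It is not a member of the comparison but enters the estimate of spread. Values without it are given for the total count and for some genes and lists. Other list counts and adjusted p-values are given with it and can differ without it.

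Of 15331 genes tested, 160 (1.04%) passed the threshold of an adjusted p under 0.05 in edgeR's quasi-likelihood test. In dyW muscle 116 genes rose (0.757% of those tested) and 44 fell (0.287%), while the median log2 fold change of all genes was 0.01. The higher genes were 72.5% of the calls. Call counts in the lists below are to be read against 0.757% higher and 0.287% lower over all genes. Leaving the imprinted domain aside, 54 of the 160 were in a list and 106 in none. On RPKM values, which carry no correction for composition, limma called 552 or 296 genes with a pseudocount of 0.1 or 1, and 94% or 92.6% of them were higher. At an unadjusted p under 0.05 edgeR had 2430 genes. On log2 CPM after TMM scaling, the dyW and WT libraries did not overlap, with dyW higher, for 3069 genes (20%), and with dyW lower for 2714 (17.7%), and the 160 called genes were all among them. The 10 genes that rose most by the naming rule were Bcl2a1b, Sln, Krt8, Aldh3a1, Mt2, Rrad, Krt18, Myl4, Col8a1 and Ankrd1, and the 10 that fell most were Cd28, Lyz1, Chac1, Fam83d, Arrdc2, Cntnap2, Lama2, Rmi2, Gpt2 and Cpz. Fitted on the 5 TD139 libraries alone the count was 432, of which 150 were among the 160. With the slow-rich WT PBS library left out of the spread, a choice made after seeing the data, it was 597 (373 higher and 224 lower), with all 160 among them. Leaving out 1 TD139 library left 32, 69 or 51 calls without dyW replicate 1, 2 or 3, and 6 or 91 without WT replicate 1 or 2. In no alternative did any of the 160 change direction, and 4 of them, Lama2, Myl4, Mpeg1 and Cyp1b1, passed in all 17 alternatives (Cyp1b1 is outside the naming rule).

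**Figure D1:**
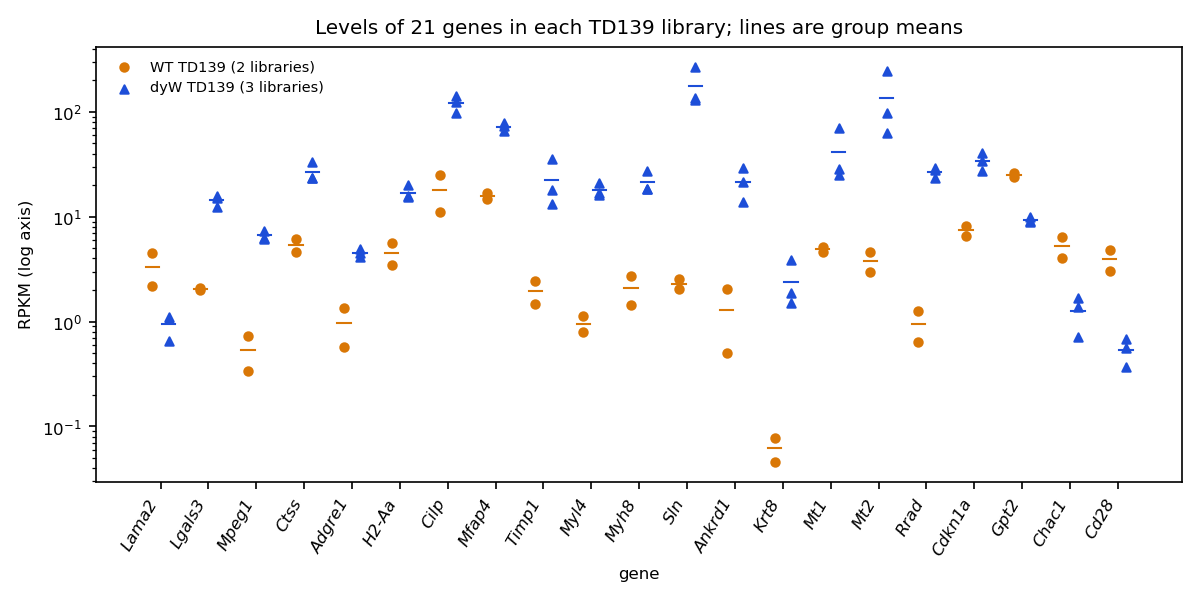
RPKM on a log axis for 21 genes in each TD139 library. Circles are the 2 WT libraries, triangles the 3 dyW libraries and short lines the group means. The symbols of the 2 groups do not overlap for any gene shown, with Lama2, Gpt2, Chac1 and Cd28 lower in dyW and the other 17 higher.

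The targeted gene was checked first. Lama2 (chromosome 10, 26980036 to 27619758, mm10) was at 1.10, 1.07 and 0.652 RPKM in dyW replicates 1 to 3 and at 2.18 and 4.52 in WT replicates 1 and 2, and libraries are listed in this order throughout. All 3 dyW libraries lay below both WT libraries, though transcript reads remained in each, and where in the gene those reads fell is not recorded in the counts. Lama2 fell by 2.17 on the log2 scale (SE 0.29, adjusted p = 0.00872), and its adjusted p was between 0.0103 and 0.0354 with 1 TD139 library left out and at most 0.0363 in any of the 17 alternatives. Lama1, the embryonic alpha chain able to take the place of alpha 2, had 8, 3 and 2 reads in the dyW libraries and 0 and 1 in the WT libraries, too few to be tested.

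Among the laminin chains, which assemble as alpha, beta and gamma trimers, 2 of the 10 tested fell and none rose (median log2 fold change -0.10, all genes 0.01; on RPKM values 0.17 or 0.08 with a pseudocount of 0.1 or 1). The second to fall was Lamc3, a gamma chain, at 0.0498, 0.109 and 0.0349 RPKM in dyW and 0.419 and 0.338 in WT (log2 fold change -2.88, SE 0.58, adjusted p = 0.0429). Lamc3 was thus scarce in both groups and lowest in the mutants. Lama4, the alpha chain typical of vessels and of immature fibres, was at 8.42, 8.40 and 8.53 RPKM in dyW and at 2.34 and 3.50 in WT (log2 fold change 1.19, SE 0.26). The dyW values did not overlap the WT values, but its adjusted p was 0.0512, and it was 0.0271 with the 5 TD139 libraries alone. The partners of alpha 2 in laminin-211, Lamb1 and Lamc1, had log2 fold changes of 0.73 and 0.44 (adjusted p = 0.188 and 0.497).

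Of 20 other listed basement membrane genes 2 fell (0.287% of all genes) and none rose (median 0.30). Both encode collagen IV chains of the alpha 3-4-5 network and lie side by side on chromosome 1. Col4a4 was at 0.161, 0.155 and 0.160 RPKM in dyW and 0.447 and 0.412 in WT (log2 fold change -1.78, SE 0.22, adjusted p = 0.00577). Col4a3 was at 0.126, 0.162 and 0.118 against 0.327 and 0.379 (log2 fold change -1.72, adjusted p = 0.0179). Each was low in absolute level and lower in every dyW library. None of 23 laminin receptor and dystrophin-complex genes was called (median 0.04). Alpha-sarcoglycan (Sgca) had a log2 fold change of -0.59 and integrin beta 1 (Itgb1) one of 0.57 (adjusted p = 0.227 and 0.322). None of 17 dystroglycan glycosylation genes was called either (median -0.16). Outside these lists, Npnt was called higher and Egflam lower. Their log2 fold changes lay between 1.06 and 1.78 and between -1.29 and -0.56 over the 17 alternatives. Of the 4 calls in these lists, 2, 4 and 2 passed without dyW replicate 1, 2 and 3, and 1 and 2 without WT replicate 1 and 2.

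Galectin-3 transcript was higher in dyW muscle under its inhibitor. Lgals3 was at 15, 12.3 and 15.8 RPKM in dyW and at 2.08 and 1.99 in WT. The 3 dyW values lay close together and far above the WT pair. The log2 fold change was 2.47 (SE 0.40, adjusted p = 0.0174), beside 2.65 after PBS (adjusted p = 0.0039) and 4.30 without treatment (adjusted p = 4.75e-05). The genotype effect was smaller under TD139 than without treatment by 1.81 (adjusted p = 0.0346), and the difference from PBS was -0.18 (unadjusted p = 0.726). The treated and untreated mice are separate cohorts with different age labels, and which of these the difference goes with cannot be told apart.

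Of 15 galectins and galectin-3 partners 2 rose, the other being Trem2, a lipid-sensing receptor of macrophages that binds galectin-3, at 0.869, 0.783 and 0.892 RPKM in dyW against 0.0665 and 0.0855 in WT (log2 fold change 3.13, adjusted p = 0.0324). The list's median was 0.27. Galectin-1 (Lgals1), the most abundant galectin here, was at 332, 366 and 329 RPKM against 242 and 207 (log2 fold change 0.27, adjusted p = 0.656). Cd44, a hyaluronan receptor, had a log2 fold change of 1.36 (adjusted p = 0.0849) and the galectin-3 binding protein Lgals3bp one of 0.59 (adjusted p = 0.197). Lgals3 passed when dyW replicate 2 was left out (adjusted p = 0.0375), and not without dyW replicate 1 (0.0648) or 3 (0.0501) or WT replicate 1 (0.138) or 2 (0.0812), with log2 fold changes between 2.42 and 2.57. Trem2 passed in none of these 5.

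Macrophage genes held 6 of the calls. Of 30 tested 6 rose and none fell, the median log2 fold change was 1.12, and the libraries did not overlap with dyW higher for 24 (20% of all genes). Mpeg1, which encodes the pore-forming perforin-2 of macrophages, was at 6.19, 6.29 and 7.39 RPKM in dyW and 0.341 and 0.735 in WT (log2 fold change 3.28, SE 0.36, adjusted p = 0.00577). Cathepsin S (Ctss), a lysosomal protease of antigen-presenting cells, was at 23.5, 23.4 and 33.4 against 4.60 and 6.08 (log2 fold change 1.98, adjusted p = 0.0100). F4/80 (Adgre1), the standard surface marker of mouse macrophages, was at 4.16, 4.50 and 4.89 against 0.574 and 1.36 (log2 fold change 1.88, adjusted p = 0.0417). In each of the 3 genes dyW replicate 3 was highest and WT replicate 1 lowest. The asparaginyl protease legumain (Lgmn), the NADPH oxidase subunit Cybb and the fractalkine receptor Cx3cr1 completed the 6, with log2 fold changes of 1.28, 1.52 and 2.37. Summed over the list, macrophage genes came to 317, 343 and 399 RPKM in dyW and 97.1 and 145 in WT. In bulk muscle, more cells of a type and more RNA per cell cannot be told apart.

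Of 20 genes of phagocytic, lipid-associated macrophages 3 rose (Trem2, Lgals3 and the lipid carrier Apoe) and 1 fell, the synaptic vesicle gene Syngr1. Apoe was at 105, 143 and 112 RPKM in dyW and 47.1 and 31.5 in WT (log2 fold change 1.27, adjusted p = 0.0348). Syngr1 was at 1.71, 1.64 and 1.66 against 4.25 and 2.63 (log2 fold change -1.38, adjusted p = 0.0179). Of 19 MHC class II and dendritic cell genes 2 rose, the class II chains H2-Aa and H2-Ab1, which present peptides to CD4 T cells. H2-Aa was at 15.3, 20 and 15.6 RPKM against 3.45 and 5.66 (log2 fold change 1.56, adjusted p = 0.0263). H2-Ab1 was at 12.7, 16.2 and 15.8 against 3.75 and 4.81 (log2 fold change 1.45, adjusted p = 0.0381). The class II pair moved together in the 5 libraries, and the list's median was 1.10.

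In each of 3 further innate lists 1 gene rose (0.757% of all genes rose). Among 20 complement genes it was the anaphylatoxin receptor C3ar1 (log2 fold change 2.18, adjusted p = 0.0251), among 26 chemokines and cytokines the scavenger-type chemokine Cxcl16 (2.01, adjusted p = 0.0106), and among 30 inflammasome and toll-like receptor genes the RNA sensor Tlr13 (2.56, adjusted p = 0.0342). Their lists had medians of 0.84, 1.15 and 0.78. None of 48 interferon-stimulated genes was called by edgeR (median 0.47, 45 of 48 positive), while DESeq2 called 3. Il33, the alarmin of stromal cells, and the interferon-induced Cxcl9 had log2 fold changes of 1.31 and 2.11 (adjusted p = 0.0549 and 0.0595). None of 5 neutrophil genes (median 1.94, with Mmp9 the 1 negative) or 9 mast cell genes (median 0.03) was called.

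The lymphocyte list summed to 7.86, 9.69 and 8.27 RPKM in dyW and to 25.4 and 38.8 in WT, lower in every dyW library. Most of the WT sum was Ighm, the heavy chain of IgM, at 2.98, 6.14 and 4.78 RPKM in dyW and 19.4 and 25.1 in WT. Ighm had a log2 fold change of -2.61 (SE 0.64, adjusted p = 0.0776, and 0.0111 without the slow-rich WT PBS library). Other markers were scarce. Cd3e, the T cell receptor subunit, had 2, 4 and 2 reads in dyW and 2 and 0 in WT, and of 22 lymphocyte genes 11 could be tested. The median was -0.20. The single call among them was Cd28, known as the co-stimulatory receptor of T cells, at 0.366, 0.679 and 0.559 RPKM in dyW and 3.07 and 4.86 in WT. Cd28 was therefore lower in every dyW library and present in WT libraries with next to no Cd3e reads. It fell by 3.23 on the log2 scale (SE 0.51, adjusted p = 0.0144), beside -2.72 after PBS and -3.14 without treatment. Of the 16 calls in the immune lists, Lgals3 and Trem2 included, 3, 6 and 3 passed without dyW replicate 1, 2 and 3, and 1 and 6 without WT replicate 1 and 2; the one that passed without WT replicate 1 was Mpeg1 (adjusted p = 0.0397).

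The matrix calls described here, list members and Col8a1, were accessory proteins, regulators and a short-chain collagen. Outside the lists, Adamts17, Mmp16 and Sulf1 were also called higher and Emid1 lower. Of 32 matricellular proteins and small proteoglycans 5 rose (Thbs3, Aspn, Mfap4, Mfap5 and Cilp) and none fell, with a median of 0.97. Cilp, a matrix protein of cartilage and fibrotic tissue, was at 142, 97.2 and 124 RPKM in dyW and 11.2 and 24.8 in WT (log2 fold change 2.41, SE 0.45, adjusted p = 0.0291). The elastic-microfibril protein Mfap4 was at 73.5, 65.3 and 77.6 against 14.7 and 16.8 (log2 fold change 1.85, adjusted p = 0.0103). Asporin (Aspn), a small leucine-rich proteoglycan, was at 57.0, 49.6 and 37.1 against 6.84 and 15.2 (log2 fold change 1.79, adjusted p = 0.0247). For all 3 the lower WT value was that of replicate 1.

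None of 26 fibrillar collagen and crosslinking genes was called (median 0.45). Col1a1 and Col3a1, the main fibril chains, are named after their values were seen. Col1a1 was at 206, 198 and 325 RPKM in dyW and 134 and 253 in WT, an overlap (log2 fold change -0.02, SE 0.49). Col3a1 was at 322, 341 and 372 against 119 and 270 (log2 fold change 0.48, SE 0.33, adjusted p = 0.502), with the WT libraries further apart than the dyW libraries. The lysyl hydroxylase Plod2 had the lowest p of the list (log2 fold change 1.40, adjusted p = 0.0717). Outside the list, the short-chain collagen Col8a1 was at 13.6, 9.76 and 15.9 RPKM against 0.515 and 1.03 (log2 fold change 3.74, SE 0.55, adjusted p = 0.0106).

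Some regulators of matrix turnover rose as well. The metalloproteinase Mmp19 and the metalloproteinase inhibitor Timp1 were the 2 of 28 proteases and inhibitors to pass. Timp1 was at 17.8, 13.2 and 35.5 RPKM in dyW and 1.48 and 2.45 in WT (log2 fold change 3.14, adjusted p = 0.0337), and Mmp19 had a log2 fold change of 1.46 (adjusted p = 0.0242). Among 26 TGF-beta pathway genes the latent TGF-beta binding protein Ltbp2 rose (3.04, adjusted p = 0.0359), and among 20 fibroblast genes the calcification inhibitor Mgp, at 175, 105 and 116 RPKM against 22.6 and 18.2 (2.35, SE 0.31, adjusted p = 0.00749). Of these 10 matrix genes 3, 4 and 4 passed without dyW replicate 1, 2 and 3, none without WT replicate 1 (adjusted p from 0.0723 to 0.264) and 8 without WT replicate 2. Their log2 fold changes stayed between 0.82 and 4.31. Outside these 10, Mmp9 of the protease list and Mstn of the TGF-beta list were not called. The log2 fold changes of Mmp9 and Mstn were negative, from -3.35 to -0.57 and from -1.78 to -1.07 over the 17 alternatives.

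Genes of embryonic and regenerating fibres held the largest number of calls of any list. Of 30 tested 8 rose and none fell, with a median of 1.75. The libraries did not overlap with dyW higher for 24 (20% of all genes) and with dyW lower for 3 (17.7%). Summed over the list, levels came to 7140, 8270 and 9630 RPKM in dyW and 8500 and 10200 in WT, an overlap. Myl4, the atrial and embryonic myosin light chain, had the smallest p in the whole comparison. It was at 20.8, 16.7 and 16.1 RPKM in dyW and 0.792 and 1.12 in WT (log2 fold change 3.89, SE 0.34, adjusted p = 0.00139). Myh8, the perinatal myosin heavy chain, was at 27.2, 18.5 and 18.4 against 1.43 and 2.75 (log2 fold change 3.02, adjusted p = 0.0179). The third sarcomeric gene, cardiac troponin T (Tnnt2), which fetal skeletal muscle also makes, was at 5.25, 4.60 and 5.66 against 1.56 and 0.860 (log2 fold change 1.75, adjusted p = 0.0226). Immature forms of a myosin light chain, a myosin heavy chain and a troponin were thus each higher in all dyW libraries.

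Sarcolipin (Sln), a small inhibitor of the SERCA calcium pump that is scarce in adult fast muscle, was at 269, 135 and 130 RPKM in dyW and 2.56 and 2.03 in WT. The gap between the groups was much wider than the difference between dyW replicate 1 and the other 2. Its log2 fold change was 5.94 (SE 1.03, adjusted p = 0.0224). Ankrd1, a stretch-induced ankyrin repeat protein that binds titin, was at 29.2, 13.7 and 21.5 against 0.497 and 2.06 (log2 fold change 3.73, adjusted p = 0.0100). The simple-epithelial keratin pair Krt8 and Krt18, which assemble with each other, rose together. Krt8 was at 3.83, 1.86 and 1.49 RPKM against 0.0456 and 0.0781 (log2 fold change 4.91, adjusted p = 0.0100), and Krt18 at 8.97, 3.58 and 2.87 against 0.294 and 0.242 (3.92, adjusted p = 0.0116). As with Sln, dyW replicate 1 was highest for both keratins. The doublecortin-like kinase Dclk1 was the eighth (2.05, adjusted p = 0.0179).

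Embryonic myosin heavy chain, Myh3, is named after its values were seen. It was at 10.8, 10.6 and 10.5 RPKM in dyW and 0.167 and 0.317 in WT, with nearly equal values among the mutants. Its log2 fold change was 5.12 (SE 1.36) and its adjusted p 0.0989, so it was not called; the adjusted p was 0.00176 with the 5 TD139 libraries alone and 0.000309 without the slow-rich WT PBS library. After PBS Myh3 was at 9.29, 3.81 and 6.87 RPKM in dyW and at 9.72, 0.362 and 0.227 in WT, the first WT value being that of the slow-rich library. Its log2 fold change there was 0.80 (adjusted p = 0.746) with that library and 4.09 (adjusted p = 0.00103) without it. The difference between the treatments was 4.32 (unadjusted p = 0.017) with it and 1.03 (unadjusted p = 0.0604) without it. Cardiac actin (Actc1), which marks immature fibres, was lower in every dyW library, at 1190, 1510 and 2690 RPKM in dyW and 5740 and 6290 in WT (log2 fold change -2.10, adjusted p = 0.0801).

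Among stretch-response and intermediate filament genes 4 of 20 rose (Ankrd1, Krt8, Krt18 and the beta-tubulin Tubb6) and 1 fell, Ankrd23, a relative of Ankrd1 in the same protein family. Tubb6 was at 59.4, 41.2 and 61.8 RPKM against 11.1 and 12.3 (log2 fold change 1.87, SE 0.22, adjusted p = 0.00577), and Ankrd23 at 426, 325 and 483 against 846 and 799 (-1.35, adjusted p = 0.0495). The 2 ankyrin repeat genes therefore differed from WT in opposite directions. Of 24 neuromuscular junction and denervation genes 2 rose (0.757% of all genes). They were the transcription factor Runx1 (2.68, adjusted p = 0.0179), which muscle induces on denervation, and the cell cycle inhibitor Cdkn1a. Of 22 membrane repair genes the calcium-binding S100a4 (2.52) and annexin Anxa4 (1.51) rose (adjusted p = 0.0179 and 0.0251). None of 27 satellite cell and myogenic regulator genes was called (median 0.10). Of 33 cell cycle and replication genes none was called and 24 had a negative log2 fold change. Their median was -0.28, beside 0.56 after PBS and 0.98 without treatment. Of the 14 fibre-list calls 5, 11 and 8 passed without dyW replicate 1, 2 and 3, and 1 and 8 without WT replicate 1 and 2; the one left without WT replicate 1 was Myl4 (adjusted p = 0.0277).

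The upstream sequences of Ankrd1 and Tnnt2 are shown because both genes are called members of that list and hold a match to the M-CAT element (cattcc on either strand, in capitals where it occurs), the site known to bind TEAD factors in muscle genes. They are the 250 bases before the start of transcription in RefSeq, build GRCm38.p6.
Ankrd1, chr19:36119845-36120094, minus strand: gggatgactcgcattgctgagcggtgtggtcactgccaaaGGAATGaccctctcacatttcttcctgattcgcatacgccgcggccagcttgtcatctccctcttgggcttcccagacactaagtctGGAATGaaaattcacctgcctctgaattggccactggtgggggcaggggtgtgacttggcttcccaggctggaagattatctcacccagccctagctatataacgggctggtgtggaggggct
Tnnt2, chr1:135836084-135836333, plus strand: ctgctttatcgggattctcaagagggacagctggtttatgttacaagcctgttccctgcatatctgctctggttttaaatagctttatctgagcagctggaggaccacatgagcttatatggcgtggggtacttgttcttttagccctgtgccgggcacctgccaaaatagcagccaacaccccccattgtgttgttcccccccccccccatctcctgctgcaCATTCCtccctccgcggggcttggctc
Ankrd1 holds 2 matches and this Tnnt2 start holds 1. Of the 7 called members of the list with a promoter in the table these are the 2 with a match, and 12.6% of all 32851 promoters hold one in a window of the same length. A match describes the letters and not a bound site.

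Fibre-type genes gave no call, though most were at separate levels in the 2 groups. None of 23 fast fibre genes passed (median -0.93), yet for 20 of them both WT libraries lay above all dyW libraries (17.7% of all genes). Alpha-actinin-3 (Actn3), the Z-disc protein of fast fibres, was at 1730, 1480 and 1740 RPKM in dyW and 3010 and 3140 in WT (log2 fold change -1.24, adjusted p = 0.0804). Ckm was at 4880, 4880 and 5380 against 9370 and 8530 (-1.17, adjusted p = 0.0985). None of 18 slow fibre genes passed (median 1.92), with the dyW libraries above both WT libraries for 15 (20% of all genes). Fhl1, a LIM-domain protein rich in oxidative fibres, was at 422, 381 and 326 RPKM against 33.2 and 50 (log2 fold change 2.84, adjusted p = 0.204). Slow myosin Myh7 was at 6.30, 19.8 and 44.0 RPKM in dyW and 0.0734 and 0.0361 in WT (log2 fold change 8.36, SE 3.34, adjusted p = 0.247). Among the fast myosins, named after their values were seen, IIa myosin (Myh2) was at 272, 276 and 307 RPKM against 24.2 and 20.5 and IIx myosin (Myh1) at 1960, 1660 and 1340 against 354 and 407, while IIb myosin (Myh4) was at 6280, 5820 and 6780 against 7720 and 12100.

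The counts in these lists depended on the libraries that set the spread. Without the slow-rich WT PBS library, 16 of the 23 fast fibre genes were lower and 2 higher, and 13 of the 18 slow fibre genes were higher. With the 5 TD139 libraries alone the counts were 11 lower, 2 higher, and 11 higher. DESeq2 called 10 fast fibre genes lower and 1 slow fibre gene higher. Leaving out any 1 TD139 library gave no call in either list. After PBS the slow fibre median was -1.43 with all 3 WT libraries and 1.56 without that one. The Hox and other limb position genes, which are expressed by position along the body and limb, were also read. None of 16 was called, 15 had a negative log2 fold change (median -0.57), and for 8 both WT libraries lay above all dyW libraries (17.7% of all genes). Their median was -0.18 after PBS and -0.07 without treatment. The part that the site of sampling had in the fibre-type levels was not tested.

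**Figure D2:**
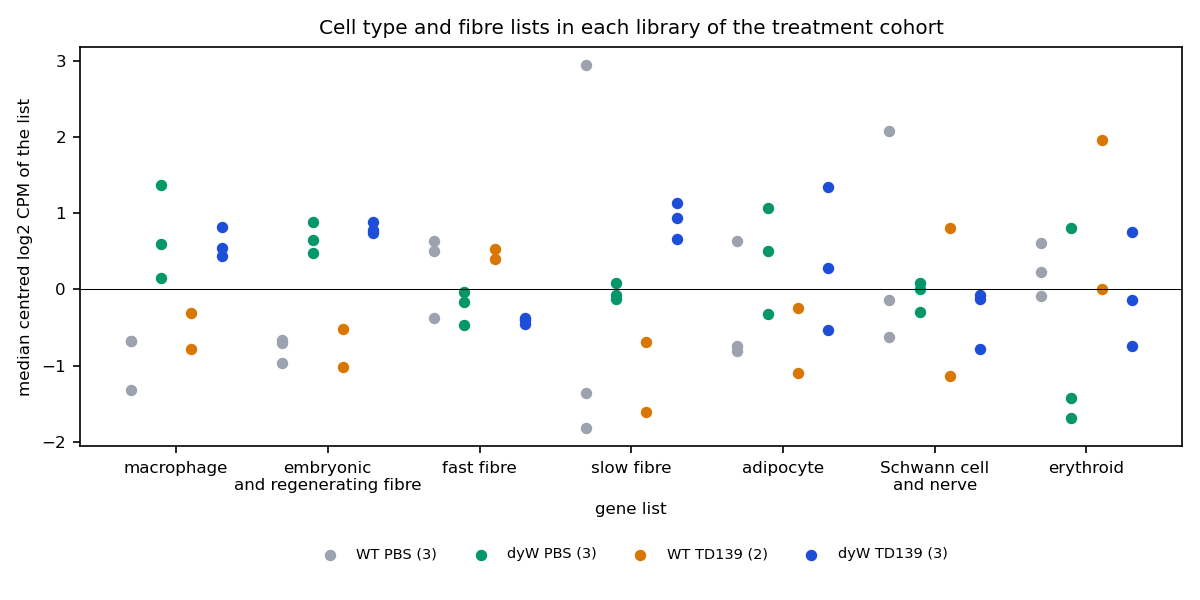
Median over each list's genes of log2 CPM (counts scaled to library size), centred on each gene's mean over the 11 libraries of the PBS and TD139 groups. Each point is 1 library. The dyW TD139 libraries lie above the WT TD139 libraries for the macrophage, regenerating fibre and slow fibre lists and below them for the fast fibre list, and 1 WT PBS library stands at 2.94 for slow fibre genes.

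Other tissues that a piece of quadriceps can hold varied between libraries. Adipocyte genes had a median of 1.26 with no call in 16, and their summed level was 577, 1470 and 775 RPKM in dyW and 386 and 416 in WT. The adipokine Adipoq was at 5.41, 37.0 and 12 against 7.44 and 3.04, and the brown fat uncoupler Ucp1 at 0.0714, 26.5 and 6.94 against 0.0838 and 0. The high library for both was dyW replicate 2, and without it the list's median was 0.54. Schwann cell genes summed to 104, 71.9 and 124 RPKM against 182 and 46.1. Erythroid genes summed to 1860, 613 and 1130 against 4370 and 920 (median -1.20, no call in 9). For nerve and blood genes it was WT replicate 1 that stood high. Tendon and cartilage genes summed to 246, 143 and 216 RPKM against 28.1 and 96.3 (median 0.06, no call in 17), with WT replicate 1 lowest. The part that these tissues had in the calls was not tested.

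Of 27 metallothionein and oxidant-response genes 4 rose (Mt1, Mt2, Nox4 and Cybb) and none fell, with a median of 0.61. Metallothioneins are small cysteine-rich proteins that bind zinc and copper and are induced by metals, glucocorticoids and inflammation. Mt2 was at 97.2, 63.3 and 245 RPKM in dyW and 2.98 and 4.60 in WT (log2 fold change 4.79, SE 0.60, adjusted p = 0.00577). Mt1 was at 28.3, 25.1 and 70.3 against 5.17 and 4.59 (log2 fold change 2.72, SE 0.45, adjusted p = 0.0179). The neighbouring genes were highest in the same library, dyW replicate 3. The NADPH oxidase Nox4, a source of hydrogen peroxide in fibroblasts and muscle, had a log2 fold change of 2.19 (adjusted p = 0.0106).

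Because Mt1 and Mt2 moved together, their upstream 250 bases (RefSeq, GRCm38.p6) are shown with the core of the metal response element, the site of the zinc sensor MTF-1, in capitals. The letters searched on both strands were tgcacnc and tgcgcnc, and 21.4% of all 32851 promoters hold a match in this window.
Mt1, chr8:94178839-94179088, plus strand: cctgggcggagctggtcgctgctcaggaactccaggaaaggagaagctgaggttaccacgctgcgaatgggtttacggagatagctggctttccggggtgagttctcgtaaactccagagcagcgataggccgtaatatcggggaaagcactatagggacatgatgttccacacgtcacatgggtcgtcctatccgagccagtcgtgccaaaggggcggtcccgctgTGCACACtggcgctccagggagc
Mt2, chr8:94172368-94172617, plus strand: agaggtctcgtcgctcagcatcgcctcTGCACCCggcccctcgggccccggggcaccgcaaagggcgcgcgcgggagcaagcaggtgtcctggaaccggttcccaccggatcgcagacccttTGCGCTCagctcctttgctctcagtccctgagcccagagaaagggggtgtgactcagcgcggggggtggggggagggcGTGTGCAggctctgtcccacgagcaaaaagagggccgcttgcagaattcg
In these windows Mt1 holds 1 match and Mt2 holds 3. Of the other called members of the list, Nox4 holds a match and Cybb holds none. Here too a match describes letters and not a bound site. Other letters and longer stretches were not searched.

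Of 28 p53 target and apoptosis genes 4 rose (0.757% of all genes). The cyclin-dependent kinase inhibitor Cdkn1a (p21) was at 40.4, 27.1 and 33.8 RPKM in dyW and 8.24 and 6.55 in WT (log2 fold change 1.85, SE 0.31, adjusted p = 0.0179). Eda2r, a TNF-family receptor linked to muscle wasting, and Phlda3, an inhibitor of Akt, had log2 fold changes of 2.30 and 1.57 (adjusted p = 0.0400 and 0.0368). The anti-apoptotic Bcl2a1b had 152 reads over the dyW libraries and 0 over the WT libraries, at least 29.0-fold higher in dyW against a floor of 3 reads over the WT group. Bcl2a1b is 1 of several near-identical gene copies, so that its share of their reads is uncertain. Outside the lists, Rrad, a small GTP-binding protein that restrains calcium channels, was at 27.8, 23.3 and 29.2 RPKM against 0.643 and 1.25 (log2 fold change 4.48, SE 0.59, adjusted p = 0.00829). The aldehyde dehydrogenase Aldh3a1 was at 1.35, 1.19 and 0.656 against 0.0282 and 0.0290 (4.81, adjusted p = 0.0247). Cybb was also counted among the immune calls above, and Cdkn1a among the fibre-list calls. Of the 10 genes of these groups 4, 6 and 6 passed without dyW replicate 1, 2 and 3, none without WT replicate 1 (adjusted p from 0.0928 to 0.292) and 3 without WT replicate 2.

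The genes that fell were fewer and included metabolic and signalling genes of the fibre. Gpt2, the mitochondrial alanine aminotransferase, was at 9.02, 9.84 and 8.98 RPKM in dyW and 26.1 and 24.1 in WT (log2 fold change -1.78, SE 0.29, adjusted p = 0.0174). Spermine oxidase (Smox) was at 5.07, 6.82 and 6.94 against 13.9 and 12 (-1.39, adjusted p = 0.0115). It was the 1 call among 24 phosphocreatine, purine and polyamine genes (0.287% of all genes fell). The retinoid receptor Rxrg was at 8.26, 7.87 and 9.40 against 20.9 and 16.3 (-1.48, adjusted p = 0.0224), the 1 call among 17 metabolic regulators. The 3 genes have in common that the groups stood well apart and the mutants close together. Chac1, a glutathione-degrading enzyme of the integrated stress response, was at 1.67, 1.39 and 0.707 against 6.36 and 4.07 (-2.39, adjusted p = 0.0414), and no other of 21 genes of that response was called.

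Among 24 glucocorticoid-responsive genes 2 rose and 2 fell. The pair that rose were Mt1 and Mt2, and the pair that fell were the kinase Sgk1 and the arrestin-domain gene Arrdc2. Sgk1 was at 16.1, 18.8 and 21.9 RPKM in dyW and 34.0 and 37.9 in WT (log2 fold change -1.27, adjusted p = 0.049), and Arrdc2 at 2.18, 2.12 and 1.44 against 5.53 and 9.11 (-2.27, adjusted p = 0.0232). Members of this list thus differed in both directions, with a median of 0.23. The neuronal adhesion protein Cntnap2 (-2.17), the spindle protein Fam83d (-2.38), the genome-stability factor Rmi2 (-2.02), the carboxypeptidase Cpz (-1.62) and lysozyme Lyz1 (-2.71), which shares sequence with Lyz2 and is uncertain for that reason, were the remaining genes of the naming rule. Of the 11 genes named in these 2 paragraphs as lower 1, 2 and 2 passed without dyW replicate 1, 2 and 3, none without WT replicate 1 (adjusted p from 0.0913 to 0.264) and 4 without WT replicate 2. No gene of glycolysis (24 tested, median -0.49), nuclear oxidative phosphorylation (40, median -0.19), fatty acid oxidation (28, median 0.50) or glycogen metabolism (18, median -0.39) was called.

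Transcripts of the imprinted Dlk1-Dio3 domain on chromosome 12 were looked at after their values were seen. The domain gives rise to long noncoding RNAs and microRNAs from the maternal copy and to Dlk1, Rtl1 and Dio3 from the paternal copy. Of 6 genes tested 3 rose, Rian, Mirg and Rtl1. Rian was at 54.7, 48.8 and 52.5 RPKM in dyW and 12.2 and 14.8 in WT (log2 fold change 1.60, SE 0.24, adjusted p = 0.0116). Rtl1 was at 0.275, 0.142 and 0.293 against 0.0172 and 0.0133 (3.57, adjusted p = 0.0226), and Mirg had a log2 fold change of 1.66 (adjusted p = 0.048). The other 3, Meg3, Dlk1 and Dio3, had log2 fold changes of 1.22, 1.18 and 2.63 (adjusted p = 0.0785, 0.253 and 0.128). In all 6, a set chosen with these values known, the dyW libraries lay above both WT libraries (20% of all genes). None of the 3 calls passed without dyW replicate 1 or WT replicate 1, 2 passed without dyW replicate 2, and 1 passed without dyW replicate 3 or WT replicate 2. Rtl1 lies opposite antisense transcripts of the same region, and strand use in the counting is not given in the sources used here.

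**Figure D3:**
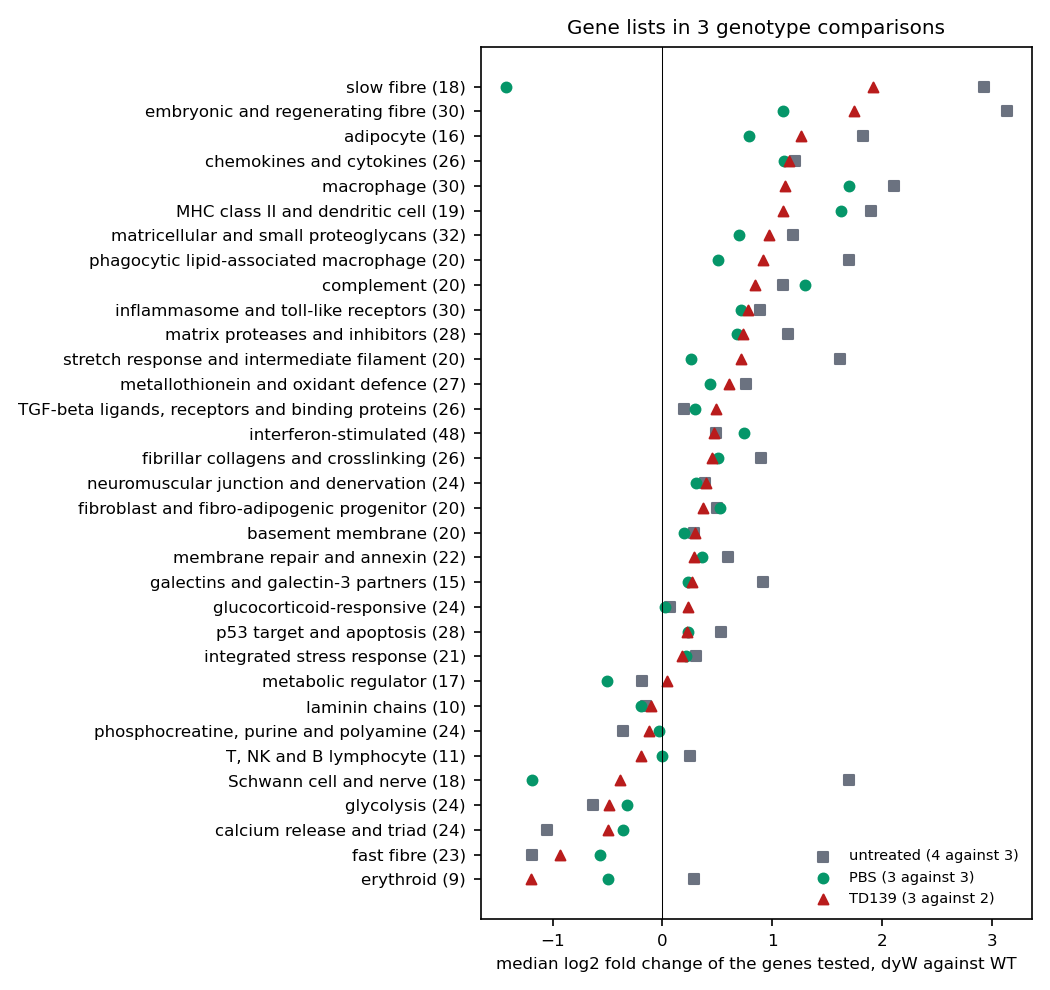
Median log2 fold change, dyW against WT, of the genes tested in each list, with their number in brackets. Triangles are the TD139 comparison, circles the PBS comparison and squares the untreated comparison. Slow fibre genes stand at 1.92 under TD139 and at -1.43 after PBS, and most other lists shown lie on the same side of 0 in all 3.

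The same genotype difference was measured in other mice after PBS and without treatment, with no library in common. The TD139 and PBS contrasts came from the same fit with a shared estimate of spread, so their sets of calls are not independent. After PBS 411 genes (2.68%) passed, 368 higher (2.4%) and 43 lower (0.28%). Without the slow-rich WT PBS library 601 passed, 465 higher and 136 lower, and the overlaps that follow are with it. All 116 genes that rose under TD139 had a positive log2 fold change after PBS, 99 of them past the threshold (85.3% of the 116 and 26.9% of the 368). Of the 44 that fell 43 were negative after PBS, 21 past the threshold, with the transcription factor gene Ikzf4 the exception. Over all genes tested the sign was shared by 69.9%. Without treatment 7395 of 14846 genes (49.8%) passed, 24.7% of genes higher and 25.1% lower. Of those calls 49.6% were higher, against 85.5% or 85.2% in limma on RPKM values. There, 115 of the 115 higher genes tested and 44 of 44 lower genes kept their sign, with 111 and 40 past the threshold, where all genes shared a sign at 64.7%. In all, 118 of the 160 genes passed in the same direction in all 3 comparisons, 40 did not pass after PBS, and 7 passed in neither of the other 2. An absent call in another comparison is not a tested difference.

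**Figure D4:**
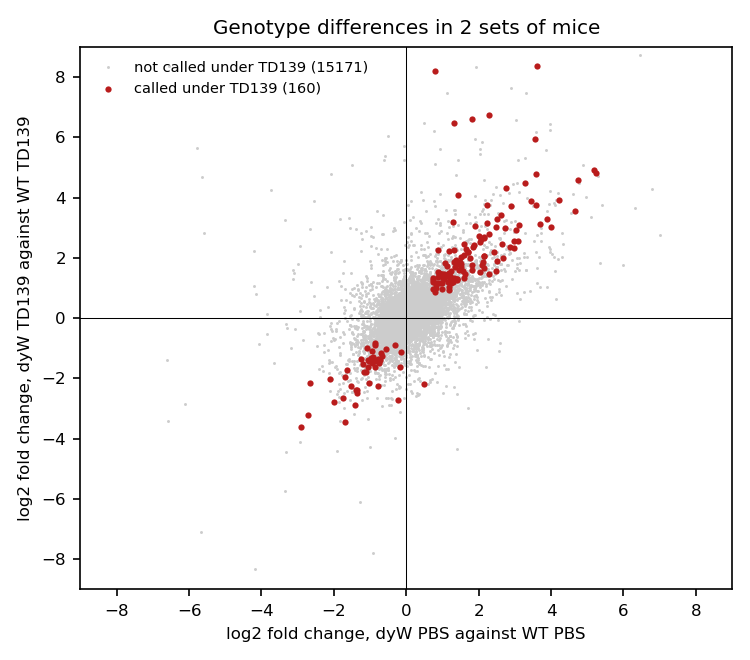
Log2 fold change of dyW against WT after PBS (horizontal) and under TD139 (vertical) for 15331 genes. Red points are the 160 genes called under TD139 and grey points the rest; all but Ikzf4 of the red points share a sign in the 2 sets of mice.

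The difference itself was tested for every gene. Between TD139 and PBS the genotype effect differed for 0 of 15331 genes (0%) in edgeR, with 294 at an unadjusted p under 0.05; DESeq2 called 1 gene and limma none. Among genes with a mean of at least 1 RPKM in a group and an established symbol, the 5 smallest p in each direction belonged to the slow fibre genes Myh7 (difference 14.9 on the log2 scale), Myl2 (10.32) and Tnnt1 (6.61), to Kbtbd13 (0.97), a Kelch protein of the sarcomere, and to Dio2, in one direction, and to Cpxm1, Pim1, Socs2, Lyz1 and Cpz in the other. Without the slow-rich WT PBS library the differences of Myh7, Myl2 and Tnnt1 were 3.45, 1.83 and 1.47 (unadjusted p = 0.0403, 0.0684 and 0.0328). Dio2, the deiodinase that makes active thyroid hormone, was at 1.66, 1.82 and 2.17 RPKM in dyW and 0.127 and 0.194 in WT under TD139 (log2 fold change 3.20, adjusted p = 0.0103) and had a log2 fold change of 1.30 after PBS (difference 1.90, unadjusted p = 0.00577). The carboxypeptidase-like Cpxm1 was at 5.41, 5.17 and 5.53 against 4.16 and 3.97 under TD139 (log2 fold change 0.06) and differed by 1.44 after PBS (adjusted p = 0.0103), a difference of -1.38 (unadjusted p = 0.0021). Cpz differed by -1.62 under TD139 and -0.16 after PBS (difference -1.46, unadjusted p = 0.00764). Ikzf4, below that level, had a difference of -2.67 (unadjusted p = 0.00125). None of these differences passed after adjustment over all genes.

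Between the TD139 and untreated comparisons the genotype effect differed for 876 of 15771 genes (5.55%), 601 (3.81%) with a higher and 275 (1.74%) with a lower log2 fold change under TD139. Those with a higher value were 68.6% of the calls, against 36.4% or 40.7% in limma on RPKM values with a pseudocount of 0.1 or 1. The count was 0 without dyW replicate 1, dyW replicate 2 or WT replicate 1, 1240 without dyW replicate 3 and 2563 without WT replicate 2. Of the genes described above, Lgals3, Ctss, Apoe, Myl4, Myh8, Tnnt2 and Tubb6 were among the 876, each higher in dyW in both comparisons and by less under TD139. The cohorts differ in age label as well as in TD139 and may differ in handling, and these cannot be told apart.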

How the data were processed

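Total RNA from quadriceps was made into stranded mRNA libraries and sequenced as paired reads, per the labels' protocols. The deposited files give, per gene and library, exon read counts and RPKM values, per the file headers; the build was mm10, per the submitters' processing notes, and the aligner and the use of strand are not given in the sources used here. Deposited total exon read counts were tested and deposited RPKM values were used for levels.

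The counts of the 11 PBS and TD139 libraries, as 4 groups, were fitted with edgeR 4.0.16 in R 4.3.3 (TMM scaling, filterByExpr with a minimum count of 10 and a total of 15, quasi-likelihood F-test, Benjamini-Hochberg adjustment over all genes tested, threshold 0.05). All adjusted and unadjusted p-values are from that test unless another is named. The untreated libraries were fitted for their own contrast, and the difference from it over all 18 libraries. DESeq2 1.42.0, limma 3.58.1 on log2(RPKM + pseudocount), other filters, scalings and sets of libraries were alternatives, and the fits were tested on simulated data. Replicate numbers follow accession order and are names only.

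Genes were named by rule: Lama2, Lama1 and Lgals3; the 10 largest fold changes per direction among calls with no overlap, an established symbol and, in whichever group was higher, a mean RPKM not below 1; up to 4 smallest p per list; and the 5 smallest p per direction for each difference between genotype effects. The last of these rules took genes tested under TD139 with an established symbol and a mean of at least 1 RPKM in a group. Further called list members (Ankrd23, Cx3cr1, Dclk1, Mfap5, Myh8, Tnnt2), cell type markers, Lamb1, Lamc1, Lgals1, Actc1, Ikzf4, Cyp1b1, the myosins, Col1a1 and Col3a1 were chosen after their values were seen. The members and lists were chosen with earlier results of these data known. Promoter sequences are RefSeq's, and the precision of a level follows from the read totals, which cover counting error only.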

Additional observations from a re-analysis of the deposited data

Results flagged for a closer look

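The genotype effect under TD139 differed from that in untreated mice for 876 genes by a test of the difference (edgeR, adjusted p under 0.05). Genes tested under TD139 with an established symbol and a mean of at least 1 RPKM in a group were ranked by p. Among them, the 5 of smallest p with a higher log2 fold change under TD139 were Osgepl1 (difference 1.14), Psd3 (1.99), Kcng4 (2.62), Filip1l (1.62) and Dock4 (1.60). The potassium channel subunit gene Kcng4 had a log2 fold change of -3.05 without treatment and -0.45 under TD139, and Psd3 one of -1.69 and 0.29. The 5 with a lower log2 fold change were the lysosomal genes Pld3 (-1.40), Grn (-1.65) and Naglu (-1.57), the chemokine gene Cx3cl1 (-2.44) and Lrrc15 (-2.50), a marker of activated fibroblasts. Progranulin (Grn) had a log2 fold change of 2.09 without treatment and 0.43 under TD139, and Lrrc15 one of 3.77 and 1.26.

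Among genes named for other reasons, the difference was -2.94 for Tnnt2, -2.27 for Myh8, -1.92 for Myl4, -1.81 for Lgals3, -1.66 for Ctss, -1.24 for Apoe, -0.99 for Tubb6, -2.04 for Cpxm1 and 1.17 for Kbtbd13. Tnnt2 had a log2 fold change of 4.70 without treatment and 1.75 under TD139, and Myl4 one of 5.83 and 3.89. No call of this kind was left without dyW replicate 1, dyW replicate 2 or WT replicate 1 of the TD139 groups. The cohorts differ in age label and may differ in handling, neither of which can be told apart from TD139.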

How the results depend on the processing

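For dyW against WT under TD139 the 160 calls became 739 with DESeq2, 320 with no filter beyond 1 read, 552 or 296 with limma on log2(RPKM + 0.1) or log2(RPKM + 1), 43 when tested against a fold of 1.5, 432 with the 5 TD139 libraries alone, 431 with all 18 libraries, 597 with 1 WT PBS library left out of the spread (chosen after seeing the data), and 6 to 91 with 1 TD139 library left out. RLE size factors, unique reads, sex as a term and leaving out the shallowest PBS library kept the count within 1.5 times. On the RPKM scale the median of all genes shifted to 0.33 or 0.19 (log2) with a pseudocount of 0.1 or 1. For the TD139 effect minus the PBS effect DESeq2 called 1 gene. For the TD139 effect minus the untreated effect the 876 became 2060 with DESeq2, 349 or 494 with limma, 0 against a fold of 1.5, and 0 to 2563 with 1 library left out. The 411 calls after PBS became 864 with DESeq2, 952 or 814 with limma, 89 against a fold of 1.5, 193 with the 6 PBS libraries alone, and 125 to 601 with 1 library left out. The 7395 untreated calls became 3150 against a fold of 1.5. Where the cause of such a change is not the smaller number of libraries, it was not tested. Where a single WT library was left, it was assumed to vary like the other groups. None of the 160 called genes changed direction in any alternative. The median of the laminin chains changed sign, from -0.10 to 0.17 or 0.08 in limma, and that of the slow fibre genes after PBS from -1.43 to 1.56 without WT PBS replicate 1. The share of higher calls in the TD139 effect minus the untreated effect went from 68.6% to 36.4% or 40.7% in limma. The comparison rests on 2 WT mice. Lama1 and Cd3e had too few reads to be tested. No paired analysis was possible because each library is a separate animal with its own number and the replicate numbers follow accession order.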
